A study of Mus musculus with 16 samples.

Results

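The genes described here are 8 that developing red blood cells use: Slc4a1, Alas2, Epb42, Klf1, Gata1, Rhag, Hba-a1 and Epor. They were taken by symbol from a table of normalised counts for 47069 genes, 1 row per gene, and followed through all 16 libraries. Every mouse had received diethylnitrosamine (DEN), a carcinogen that hepatocytes activate and that leads to liver cancer, so the controls carry that treatment too. The groups were liver at 5 months on a high-fructose diet (2 libraries) or on cornstarch (3 libraries), liver at 9 months on fructose (3) or cornstarch (3), and liver tumours at 9 months on fructose (3) or cornstarch (2). No strain is named in the labels. Nor do they tell which libraries are from different animals, and p-values here reflect only how far these samples spread, part of which may be technical. Replicate numbers were given here in the order of deposit and pair nothing. The members did not move together in these data, so they are described gene by gene, and no cell type is named from them.

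Red cells arise from progenitors in the bone marrow, and in the mouse also in the spleen. The liver is the main site of red cell formation in the fetus and largely gives it up after birth, though precursors can return to it when demand or inflammation is high. The hormone erythropoietin acts on a receptor, encoded by Epor, that keeps committed precursors alive. The transcription factors GATA1, which binds the DNA word GATA, and KLF1, which binds CACCC-like words, then switch on the genes for haem, globin and the red cell membrane. Alas2 encodes the erythroid form of the enzyme that starts haem synthesis, and Hba-a1 an adult alpha globin chain. Slc4a1 encodes band 3, which exchanges anions across the red cell membrane. Epb42 encodes protein 4.2, which ties band 3 to the membrane skeleton, and Rhag the Rh-associated glycoprotein beside it.

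Depth ranged from 11232461 to 38377674 reads per library over the listed genes. Hepatocyte markers were abundant everywhere, with a summed level of 1306820 to 4167170 normalised counts over 8 genes. In liver at 5 months, 0 of these 8 genes differed between the diets by limma (adjusted p under 0.05), and the smallest adjusted p was 0.153, for Asgr1. Replicate 1 of the 5-month fructose livers and replicate 1 of the 5-month cornstarch livers held Xist (12936 and 10883 normalised counts) with Y-linked signal of 0 and 1.91. The other 14 libraries held Y-linked signal of 1592.5 to 2601.7, so results at 5 months are also given without those 2 libraries where they change. Below, only those 2 are called the libraries with Xist. Among the 14, replicate 3 of the 9-month cornstarch livers had the lowest Y-linked signal. It also held Xist at 226, against 25.8 or less in the rest of the 14. In whole tissue, fewer cells of a type and less RNA per cell cannot be told apart.

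The promoters show which of these genes carry the GATA word close to their start. The set of RefSeq promoters used here (build GRCm38.p6) held the 250 bases upstream of a RefSeq start of 7 members, and had no entry for Slc4a1. The GATA word was searched on both strands as AGATAA and TGATAA, and with a closing G as AGATAG and again as TGATAG. A match stood in 6 of the 7 promoters and in 26.5% of 32851 promoters of the same length. The word CCNCNCCC, also on both strands, matched in 3 of the 7 (Alas2, Gata1 and Epor, with overlapping matches in Alas2 and Epor) and in 45.9% of all promoters. The sequences are printed 5′ to 3′ on the gene's own strand. The first printed are those of 3 members that stood higher in both 5-month fructose livers than in every 5-month cornstarch liver (Hba-a1 at chr11:32283422-32283671, plus strand, Epb42 at chr2:121036878-121037127, minus strand, and Rhag at chr17:40810899-40811148, plus strand). After them come those of 2 members that did not (Alas2 at chrX:150547167-150547416, plus strand, and Klf1 at chr8:84901732-84901981, plus strand). Rhag held only 1 read in replicate 2 of the 5-month fructose livers. Capitals mark the matches to both words.
Hba-a1: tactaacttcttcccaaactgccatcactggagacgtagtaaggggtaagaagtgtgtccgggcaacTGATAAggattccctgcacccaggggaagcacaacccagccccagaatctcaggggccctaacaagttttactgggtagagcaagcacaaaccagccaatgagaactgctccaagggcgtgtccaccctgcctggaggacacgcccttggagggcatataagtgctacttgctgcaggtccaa
Epb42: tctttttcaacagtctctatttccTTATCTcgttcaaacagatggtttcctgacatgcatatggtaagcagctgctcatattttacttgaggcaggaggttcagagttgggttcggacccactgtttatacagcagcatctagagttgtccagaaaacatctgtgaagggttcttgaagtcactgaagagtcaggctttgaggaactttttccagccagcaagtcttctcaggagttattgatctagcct
Rhag: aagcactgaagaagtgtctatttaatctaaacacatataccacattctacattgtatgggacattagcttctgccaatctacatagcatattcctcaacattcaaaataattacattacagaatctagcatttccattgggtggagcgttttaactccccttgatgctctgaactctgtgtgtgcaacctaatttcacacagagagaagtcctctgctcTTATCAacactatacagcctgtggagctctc
Alas2: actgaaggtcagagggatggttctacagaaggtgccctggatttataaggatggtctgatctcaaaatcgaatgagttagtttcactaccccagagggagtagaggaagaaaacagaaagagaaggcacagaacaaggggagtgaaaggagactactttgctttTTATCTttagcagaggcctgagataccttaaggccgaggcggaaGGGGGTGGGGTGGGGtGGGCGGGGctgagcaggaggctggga
Klf1: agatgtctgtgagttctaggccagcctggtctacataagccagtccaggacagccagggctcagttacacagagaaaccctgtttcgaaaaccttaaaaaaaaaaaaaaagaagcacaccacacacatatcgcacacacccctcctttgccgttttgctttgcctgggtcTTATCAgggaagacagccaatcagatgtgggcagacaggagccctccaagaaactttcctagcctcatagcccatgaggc

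The GATA match began 183 bases upstream of the start of Hba-a1, 226 in Epb42, 31 in Rhag, 86 in Alas2, 80 in Klf1 and 54 in Epor. The Gata1 promoter held no GATA word in its window and 3 matches to CCNCNCCC. That window (chrX:7967911-7968160, minus strand) lies inside the gene, whose interval runs to 7978071, so it is not the sequence upstream of the whole gene. So the GATA word stood in members that were high in the 5-month fructose livers and in members that were not, and the count describes the letters only.

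Levels are normalised counts, and folds between groups are on the scale of log2(value + 1), which understates the change of low genes. Per kilobase of exon and averaged over the 16 libraries, Hba-a1 had the highest level (1653 normalised counts per kilobase), followed by Alas2 (476), Klf1 (31.2), Epor (14.6), Slc4a1 (6.09), Epb42 (0.790), Rhag (0.637) and Gata1 (0.613). Hba-a1, Alas2, Klf1 and Epor were detected in 16 of 16 libraries. Slc4a1 was at 0 in 3 libraries, Epb42 in 5, and Gata1 and Rhag in 10 each. The precision therefore differs widely between members.

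Of the transcription factors, Gata1 (ENSMUSG00000031162, GRCm38 chromosome X, 7959260 to 7978071) was detected mainly in the 5-month fructose livers. It stood at 10.2 and 6.85 normalised counts there, from 7 and 6 reads, and at 0 in all 3 cornstarch livers of that age. The pooled fructose level was 7.70 times a floor of 3 reads over the cornstarch group. That ratio leaves out the counting error of the fructose reads, so it is no lower bound. In the 9-month livers it ranged from 0 to 1.04 on fructose and from 0 to 1.54 on cornstarch, in the fructose tumours it stood at 0, 0.809 and 3.48, and in the 2 cornstarch tumours at 0. The 5-month fructose livers were thus the highest of the 16 libraries for this gene, at very few reads.

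Klf1 (ENSMUSG00000054191, chromosome 8, 84901928 to 84905291) showed another order. It stood at 61.3 and 42.3 in the 5-month fructose livers and at 126, 78.1 and 61.3 in the cornstarch livers of that age. At 9 months it stood at 20.8, 71.7 and 56.6 in fructose livers and at 38.6, 53.8 and 60.7 in cornstarch livers. In tumours the values were 15.7, 16.2 and 19.1 on fructose and 22.7 and 18.2 on cornstarch. The diets overlapped in liver at each age, the 5-month cornstarch livers lay just above the 9-month cornstarch livers, and the tumours of each diet lay below all livers of that diet.

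Epor (ENSMUSG00000006235, chromosome 9, 21958897 to 21963506), the receptor, was the least variable member in liver. Its values were 23.3 and 22.8 in 5-month fructose livers, 25.8, 19.5 and 33.3 in 5-month cornstarch livers, 20.8, 23.5 and 20.8 in 9-month fructose livers, and 21.2, 27.7 and 26.2 in 9-month cornstarch livers. The fructose tumours held 38.3, 17.0 and 35.7 and the cornstarch tumours 56.4 and 51.0. The cornstarch tumours were the highest libraries, apart from all others. Epo, the ligand, was at 0 in 12 libraries and at 3.43 or less in the rest.

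Alas2 (ENSMUSG00000025270, chromosome X, 150547375 to 150570638), the haem enzyme, was abundant and scattered. It stood at 1483 and 1451 in the 5-month fructose livers, against 204, 1824 and 2350 in the cornstarch livers of that age. At 9 months the fructose livers held 1096, 633 and 939 and the cornstarch livers 2515, 2179 and 1010.1. The tumours held 223, 279 and 851 on fructose and 653 and 604 on cornstarch. The 5-month cornstarch livers lay on both sides of the fructose livers of that age, and their lowest value was that of the library with Xist. On the opposite strand Apex2 shares 311 exon bases with Alas2. It stood at 102 to 186 in the 16 libraries, and the strandedness of the counting is not given in the sources used here, so some reads could belong to either.

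Hba-a1 (ENSMUSG00000069919, chromosome 11, 32283511 to 32284465), the globin, stood at 5315 and 3931 in the 5-month fructose livers and at 897, 507 and 546 in the 5-month cornstarch livers. The 9-month livers held 652, 992 and 1110.3 on fructose and 989, 869.7 and 375 on cornstarch. The fructose tumours held 562, 783 and 2854 and the cornstarch tumours 369 and 721. Both 5-month fructose livers were above every other library, and replicate 3 of the fructose tumours came next. Hba-a1 and its copy Hba-a2 share 439 of 650 windows of 50 bases, so the split of reads between them is uncertain. Hba-a1 took 74.6% to 86.1% of the reads of the pair in a library.

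Slc4a1 (ENSMUSG00000006574, chromosome 11, 102348824 to 102366203), the band 3 gene, had the widest contrast among the members in liver. It stood at 283 and 88.0 in the 5-month fructose livers and at 3.82, 1.03 and 0 in the cornstarch livers of that age. At 9 months it stood at 21.8, 4.48 and 17.2 in fructose livers and at 4.82, 7.68 and 0 in cornstarch livers, and in tumours at 6.96, 10.5 and 22.6 on fructose and 0 and 4.55 on cornstarch. The 5-month fructose livers lay above the other 14 libraries, and they also differed widely from each other.

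Epb42 (ENSMUSG00000023216, chromosome 2, 121017891 to 121037072), its partner at the membrane skeleton, stood at 33.5 and 12.6 in the 5-month fructose livers and at 0, 0 and 1.33 in the cornstarch livers. Those are 34 reads against 1 read, a ratio of pooled levels of 60.4 with an exact 95% interval of 10.1 to 2454 that covers counting error only. The 9-month livers held 1.04, 1.12 and 4.08 on fructose and 0, 0 and 0 on cornstarch, and the tumours 2.61, 1.62 and 2.61 on fructose and 3.37 and 4.55 on cornstarch. Rhag (ENSMUSG00000023926, chromosome 17, 40811126 to 40840754) stood at 19.0 and 1.14 in the 5-month fructose livers, from 13 reads and 1 read, and at 0 in all 3 cornstarch livers. Its pooled level was 8.29 times a floor of 3 reads over the cornstarch group. That ratio leaves out the counting error of the fructose reads, so it is no lower bound. Elsewhere Rhag stood at 0 to 1.54, so its second fructose library cannot be told from the rest.

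**Figure D1:**
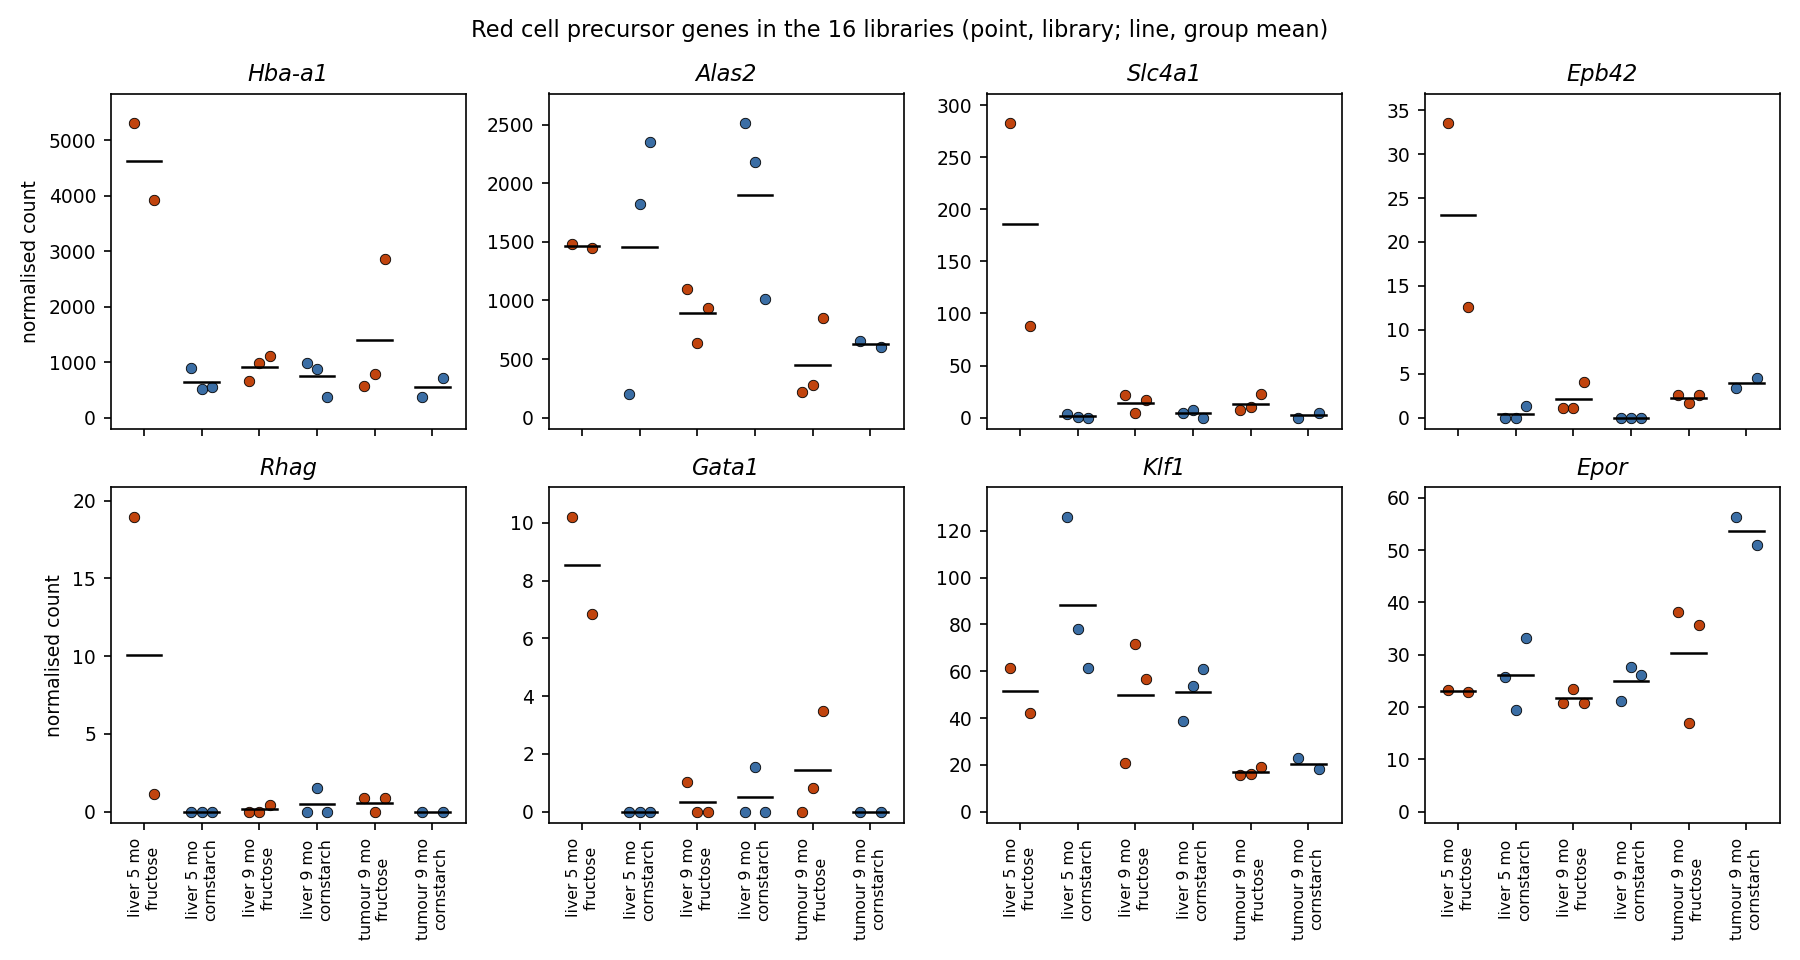
Normalised count (vertical axis, linear, from 0) of each member in the 16 libraries, by group; each point is a library, orange on fructose and blue on cornstarch, and each line a group mean. Hba-a1, Slc4a1, Epb42, Rhag and Gata1 have their highest library in the 5-month fructose livers, whereas Alas2 and Klf1 peak in cornstarch livers and Epor in cornstarch tumours.

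By group mean, the 5-month fructose livers ranked highest of the 6 groups for Slc4a1, Epb42, Gata1, Rhag and Hba-a1. How often they did so over all genes is not given here, and Gata1 and Rhag rest on few reads. Slc4a1 stood at 185 ± 138 there (SD, n = 2), followed by 14.5 ± 9.00 in 9-month fructose livers (n = 3), 13.4 ± 8.21 in fructose tumours (n = 3), 4.17 ± 3.88 in 9-month cornstarch livers (n = 3), 2.28 ± 3.22 in cornstarch tumours (n = 2) and 1.61 ± 1.98 in 5-month cornstarch livers (n = 3). Only the first step in that order separated libraries without overlap. Hba-a1 ran from 4623 ± 979 in the 5-month fructose livers through 1400 ± 1265 in fructose tumours to 545 ± 249 in cornstarch tumours, again with overlap after the first step. Klf1 ran from 88.4 ± 33.6 in 5-month cornstarch livers to 17.0 ± 1.88 in fructose tumours and Alas2 from 1901 ± 790 in 9-month cornstarch livers to 451 ± 348 in fructose tumours, with no step between neighbouring groups free of overlap. Epor was highest in cornstarch tumours (53.7 ± 3.79), apart from the fructose tumours (30.3 ± 11.6), and lowest in 9-month fructose livers (21.7 ± 1.55).

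Diet in liver at 5 months separated the members into those that rose and those that did not. Hba-a1 rose 7.26-fold under fructose (log2 fold change 2.86, SE 0.41, limma adjusted p = 0.00163). Slc4a1 rose 74.4-fold (6.22, SE 1.03, limma adjusted p = 0.00335), and Epb42 rose with a limma adjusted p of 0.0064, having passed the filter on low values only through the fructose livers. Gata1 and Rhag did not pass that filter and were not tested. Of the other members, the log2 fold change was 0.61 for Alas2 (SE 0.84, limma adjusted p = 0.677), -0.72 for Klf1 (SE 0.49, limma adjusted p = 0.358) and -0.14 for Epor (SE 0.29, limma adjusted p = 0.785).

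The test covered genes with at least 10 normalised counts in at least 2 of the 11 liver libraries, 14317 in all, which 6 of the 8 members were. Of these 6, 3 were called higher and 0 lower by limma, and edgeR and DESeq2 on recovered reads also called 3 each. Leaving aside Epb42, which had to differ to pass the filter, 2 of 5 were called higher. Over all genes tested, 14.8% were called, 10.3% higher and 4.48% lower. Without any filter or test, 5 members were higher in both fructose livers than in all 3 cornstarch livers, 0 were lower, and 3 overlapped. Among the 5, Gata1 and Rhag rest on few reads, with only 1 read of Rhag in replicate 2 of the fructose livers. Of 21097 genes detected at 5 months, 22.9% were higher and 18.1% lower in that sense. The median log2 fold change was 1.74 over the 6 members, Epb42 among them, and -0.01 over all genes. Since Epb42 had to differ to pass the filter, it raises that median. Of the 5 others, Klf1 and Epor lay below Alas2 (0.61), and Hba-a1 and Slc4a1 above it. Without the 2 libraries with Xist, or without either fructose library, 2 of 5 members tested were called, Slc4a1 and Hba-a1, since Epb42 no longer passed the filter.

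**Figure D2:**
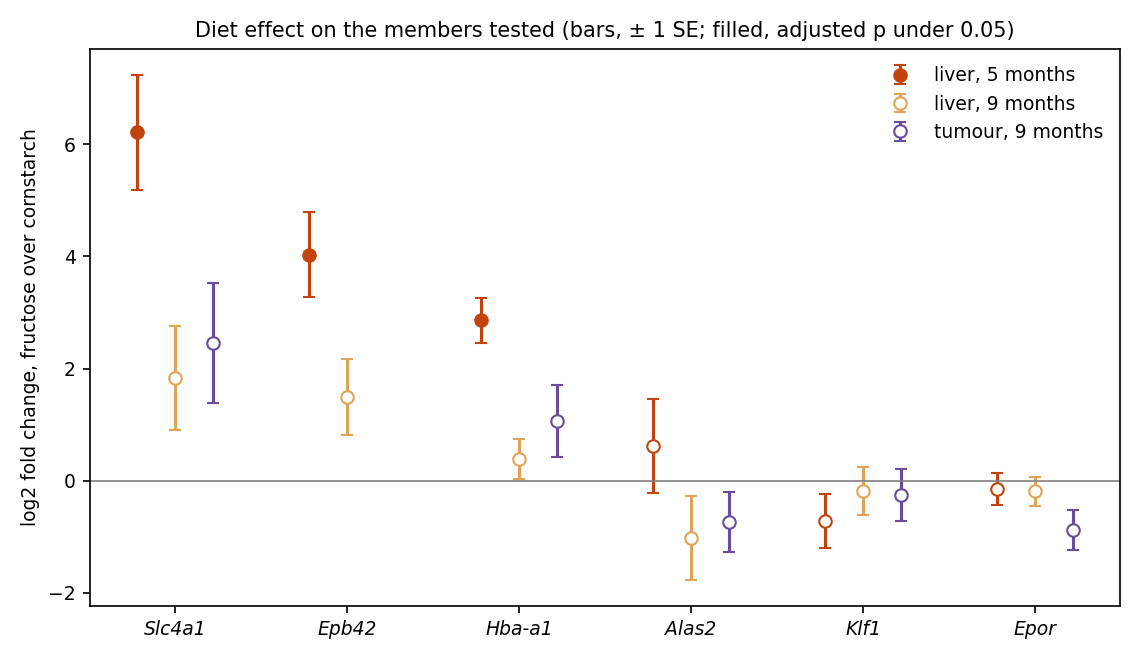
Log2 fold change of fructose over cornstarch (vertical axis) for the members that passed the filter, in liver at 5 months, liver at 9 months and tumours at 9 months; bars are 1 SE on each side and filled points had a limma adjusted p under 0.05. Slc4a1, Epb42 and Hba-a1 are filled, and only for liver at 5 months, with Slc4a1 at 6.22 and Hba-a1 at 2.86; Epb42 was not tested in tumours, and its values depend on the pseudocount.

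The other adult globins rose with Hba-a1 at 5 months. Hba-a2 stood at 1356 and 969.8 in the fructose livers and at 237, 111 and 87.9 in the cornstarch livers (log2 fold change 3.11, SE 0.43, limma adjusted p = 0.0015). The beta globins Hbb-bs (2.97, SE 0.43, limma adjusted p = 0.0018) and Hbb-bt (3.31, SE 0.59, limma adjusted p = 0.00485) rose alike, though these copies share 381 of 579 windows of 50 bases. Hba-x, Hbb-bh1 and Hbb-y, the embryonic globins, were at 0 in all 16 libraries. The 4 adult globins together made up 0.0946% and 0.0683% of reads in the fructose livers and 0.00961% to 0.0145% in the cornstarch livers.

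As a list, genes of haem synthesis and iron loading did not move as the globins did. Their means in the 5-month cornstarch livers, where Gata1 and Rhag were at 0, ran from 249 (Uros) to 3099 (Fech) normalised counts. The part of red cell precursors in these levels was not tested. Of 13 genes of haem synthesis and iron loading other than Alas2, 13 were tested, 1 rose and 1 fell, with a median log2 fold change of -0.15. Tfrc, the transferrin receptor, stood at 2614 and 1342 on fructose and at 304, 299.9 and 306 on cornstarch (log2 fold change 2.62, SE 0.30, limma adjusted p = 0.000566). Fech, which inserts iron into the ring, fell by 0.54 on the log2 scale (SE 0.13, limma adjusted p = 0.0218). The mitochondrial iron importer Slc25a37 (-0.83, limma adjusted p = 0.132) and Tmem14c (-0.32, limma adjusted p = 0.167) did not pass.

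Membrane and enzyme genes gave a mixed count. Of 16 red cell membrane and cytoskeleton genes, 10 were tested, 3 rose and 0 fell, with a median log2 fold change of 0.28. Ank1, the ankyrin that anchors band 3, held 59.8 and 19.4 on fructose against 1.91, 0 and 1.33 on cornstarch (limma adjusted p = 0.00516), and was tested only because the fructose livers were high. Leaving aside the 3 genes for which that holds, 1 of 7 rose. Dmtn missed the threshold (1.89, limma adjusted p = 0.0593). Of 9 membrane genes tested, limma called 0 without the 2 libraries with Xist, 0 without replicate 1 of the fructose livers and 2 without replicate 2.

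Of 10 red cell enzyme and maturation genes, 9 were tested, 4 rose and 1 fell, with a median of 0.73. Bpgm, which makes the regulator of haemoglobin's oxygen affinity, stood at 675 and 533 on fructose and at 206, 255 and 169 on cornstarch (log2 fold change 1.53, SE 0.25, limma adjusted p = 0.00305). Ube2l6 rose by 0.73 (SE 0.19, limma adjusted p = 0.0274), and Trim10, required late in red cell maturation, held 40.8 and 18.3 against 0, 0 and 2.66. Trim10 too was tested only through the fructose livers, and leaving it aside 3 of 8 rose. Car1, a carbonic anhydrase abundant in red cells, went the other way: it stood at 17.5 and 9.14 on fructose and at 36.3, 107 and 116 on cornstarch, and fell by 2.50 on the log2 scale (SE 0.53, limma adjusted p = 0.0116). Tal1, which this list shares with the next, rose as well. Without the 2 libraries with Xist 0 of the 9 rose, without replicate 1 of the fructose livers 2 rose, and without replicate 2 only 1 did.

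Among 11 erythroid transcription factors other than Gata1 and Klf1, 10 were tested, 4 rose and 0 fell, with a median of 1.13. Myb, a factor of immature progenitors of several lineages, stood at 105 and 84.5 on fructose and at 0, 0 and 0 on cornstarch, and was tested only because the fructose livers were high. Leaving aside the 2 genes of this list for which that holds, 3 of 8 rose. Nfe2, a factor of red cell and platelet precursors, stood at 146 and 115 against 4.77, 0 and 3.99 (log2 fold change 5.41, SE 0.93, limma adjusted p = 0.00405). E2f2 rose by 3.36 (SE 0.69, limma adjusted p = 0.00963) and Tal1 by 1.35 (SE 0.35, limma adjusted p = 0.0274). With either fructose library left out, or without the 2 libraries with Xist, 1 of 9 was called.

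Downstream of the receptor, 10 of 12 erythropoietin signalling genes were tested, 2 rose and 0 fell, with a median of 0.17. Socs3, a feedback inhibitor of cytokine receptors in general, stood at 1308 and 851 on fructose and at 121, 188 and 162 on cornstarch (log2 fold change 2.76, SE 0.38, limma adjusted p = 0.00148). Bcl2l1, which encodes the survival protein BCL-XL, stood at 1327 and 1294 against 484, 515 and 623 (1.28, SE 0.18, limma adjusted p = 0.00149). Stat5b (-0.31, limma adjusted p = 0.156) and Pim1 (1.14, limma adjusted p = 0.158) did not pass. On the hepatic side of iron supply, Hamp, which encodes hepcidin, stood at 16.0 and 485 on fructose and at 18190, 7135 and 10437 on cornstarch (limma adjusted p = 0.00329), in a list of 10 of which 2 rose and 2 fell.

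**Figure D3:**
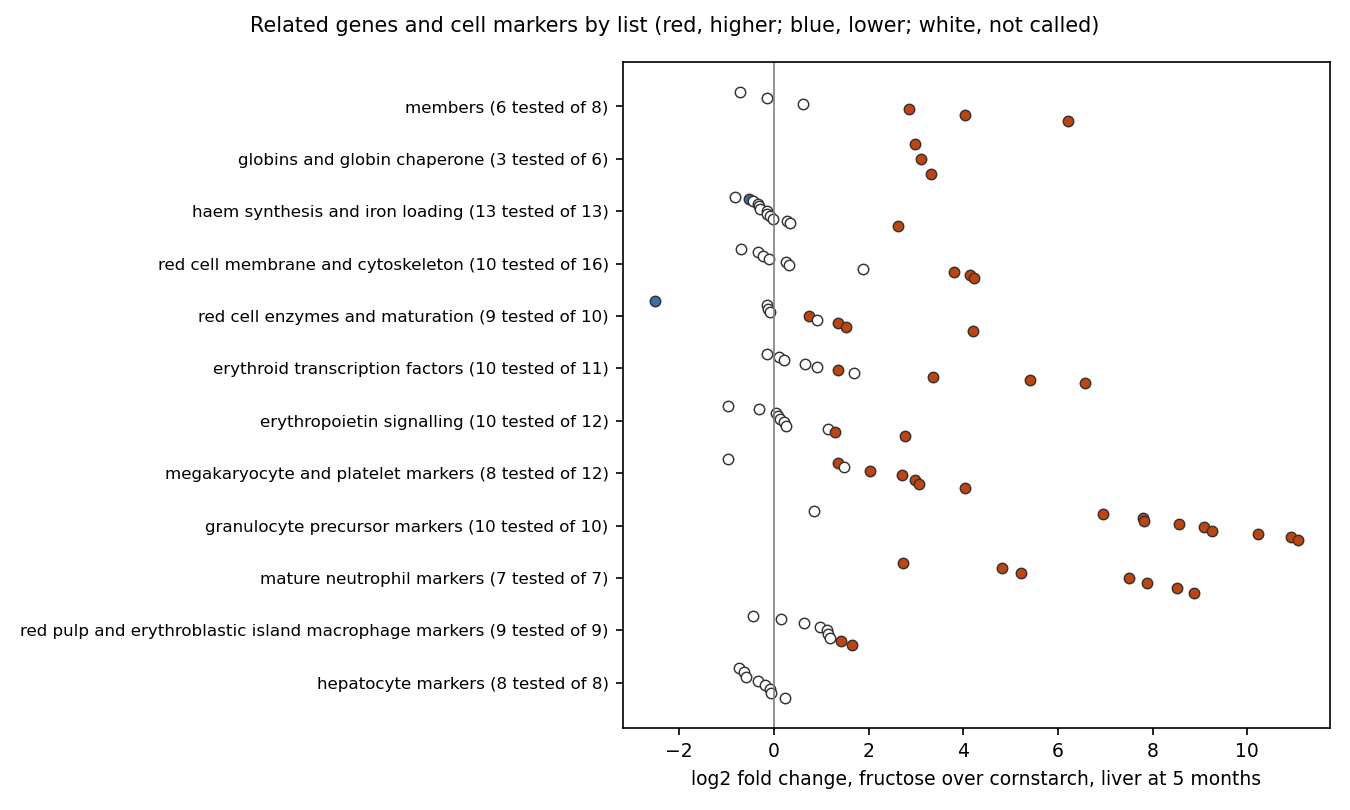
Log2 fold change of fructose over cornstarch in liver at 5 months (horizontal axis) for each tested gene of the members, the related lists and the marker lists; red points were called higher and blue points lower by limma, white points were not called. Haem and hepatocyte genes cluster near 0, whereas all 3 globins and 9 of 10 granulocyte precursor markers are called higher. Of these 10 markers, 5 were tested only through the fructose livers. Values of genes with 3 reads or fewer in the cornstarch livers depend on the pseudocount.

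Many markers of other blood cells rose at 5 months along with Hba-a1, Slc4a1 and Epb42. All 10 granulocyte precursor markers were tested and 9 rose, among them Mpo, Ctsg, Camp and Ngp, 5 of the 10 having passed the filter only through the fructose livers. Their summed level was 12794 to 15222 in the fructose livers and 78.3 to 109 in the cornstarch livers, with Ctsg at 0 in all 3 of the latter. Of 7 mature neutrophil markers 7 rose, 1 of them tested only through the fructose livers, with sums of 12964 to 13107 against 70.9 to 165. Megakaryocyte and platelet markers rose in 6 of 8 tested (of 12), or in 5 of 6 leaving aside those tested only through the fructose livers, with sums of 1009.8 to 1057 against 141 to 267. Itgb3 (log2 fold change 2.99, limma adjusted p = 0.0019) and Itga2b (1.35, limma adjusted p = 0.00258) were among them, though other cells use these too, and so were Ppbp (4.04, limma adjusted p = 0.00723) and Pf4 (2.04, limma adjusted p = 0.029). Without replicate 1 or replicate 2 of the fructose livers, 2 and 3 of 6 megakaryocyte markers were called, and 4 of 5 granulocyte precursor markers each time. Their part in the result for the members was not tested.

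Other marker lists moved less uniformly. Stem and progenitor markers rose in 3 of 8 tested (Flt3, Cd34 and Myb, the last tested only through the fructose livers) and fell in 1 (Hlf), with sums of 1249 to 1547 on fructose against 1665 to 1785 on cornstarch. The cornstarch sums were mostly Hlf (mean 1474), so the sums do not follow Flt3, Cd34 and Myb. Mast cell, basophil and eosinophil markers rose in 2 of 2 tested of 6, Mcpt8 and Prg2, both tested only through the fructose livers, with sums of 54.8 to 67.1 against 1.03 to 1.91. Of 9 B cell precursor markers, 4 were tested, and the smallest limma adjusted p was 0.136, for Cd79a. Macrophage markers of the red pulp and of erythroblastic islands rose in 2 of 9, Vcam1 (1.43, limma adjusted p = 0.00654) and Hmox1 (1.65, limma adjusted p = 0.0092), with sums of 9579 to 11179 against 6337 to 8650. Without replicate 2 of the fructose livers 0 of these 9 were called, and without the libraries with Xist 1. Of 5 spleen stroma markers, Tlx1, Nkx2-5, Ccl21a and Madcam1 were at 0 in both fructose livers, and Ccl19 stood at 7.29 and 4.57. The part of these cell types in the members' levels was not tested.

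**Figure D4:**
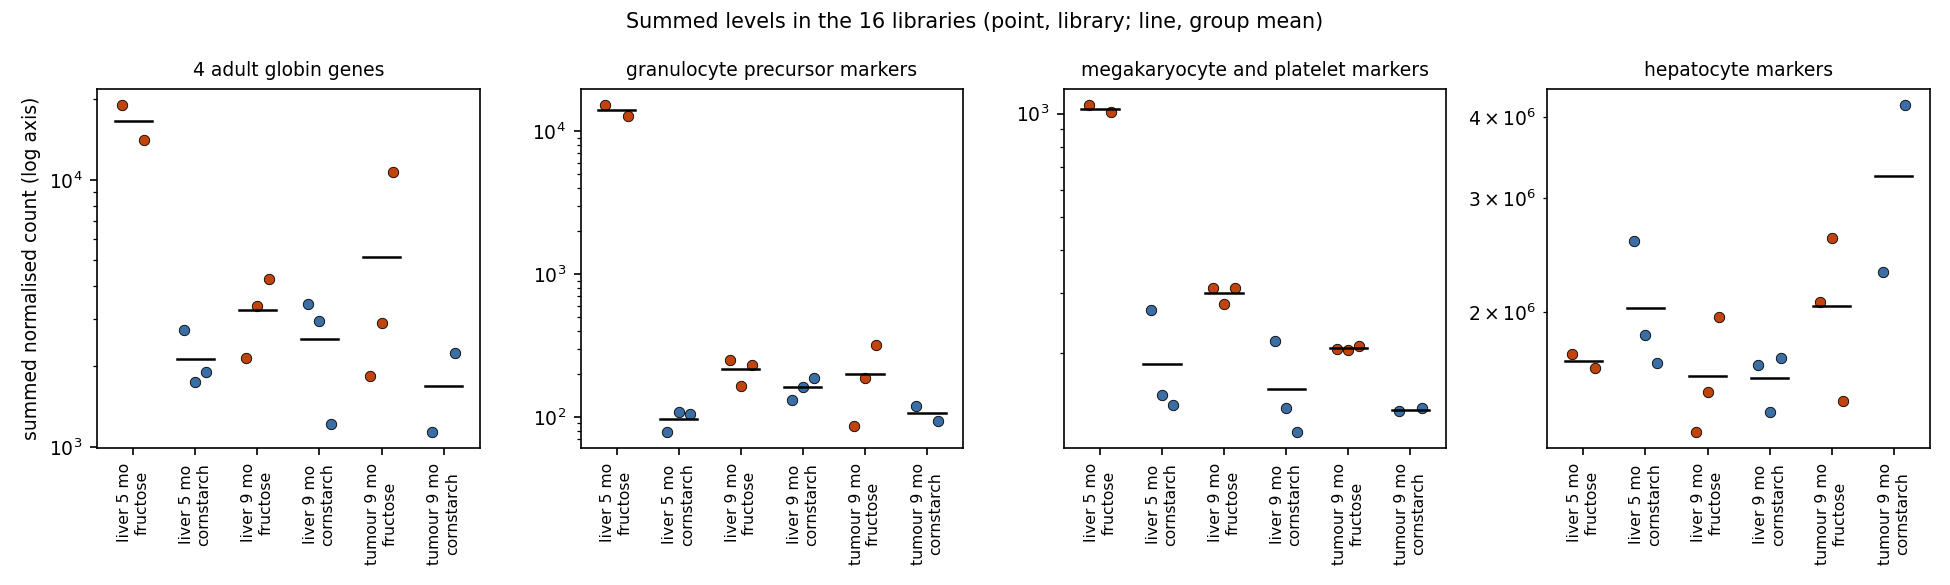
Summed normalised count (vertical axes, log scale, different ranges) of the 4 adult globin genes and of 3 marker lists in the 16 libraries; points are libraries, orange on fructose and blue on cornstarch, lines are group means. The 5-month fructose livers are highest for globins (18999 and 14068), granulocyte precursor markers and megakaryocyte markers, but lie within the range of the other livers for hepatocyte markers.

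In liver at 9 months, limma called 0 of the 6 members tested, and 0 had an unadjusted p under 0.05. edgeR and DESeq2 called 0 as well. Over all genes 2.54% were called, 2.32% higher and 0.217% lower under fructose. The log2 fold change was 1.83 for Slc4a1 (SE 0.92, limma adjusted p = 0.292) and 0.38 for Hba-a1 (SE 0.36, limma adjusted p = 0.589). Alas2 had -1.03 (SE 0.75, limma adjusted p = 0.479), Klf1 -0.18 and Epor -0.19. Epb42 was at 0 in the 3 cornstarch livers and detected in all 3 fructose livers, with a limma adjusted p of 0.247.

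Whether the effect of diet differed between the ages was tested as a difference of differences. For Hba-a1 it was 2.48 larger at 5 months on the log2 scale (SE 0.54, limma adjusted p = 0.0798) and for Slc4a1 4.38 (SE 1.38, limma adjusted p = 0.234). Epb42, at 0 in a group of this comparison, had a limma adjusted p of 0.366. Of 6 members tested, limma called 0, 3 had an unadjusted p under 0.05, edgeR called 0 and DESeq2 2. Over all genes 0.698% were called, 0.691% with a positive and 0.00698% with a negative difference (5 minus 9 months). Slc4a1, Epb42 and Hba-a1 thus passed at 5 months, while limma did not show that their diet effect differed between the ages. The copy Hba-a2 passed (3.17, SE 0.58, limma adjusted p = 0.0422), and Myb, Nfe2 and Bcl2l1 passed among the related genes. These 4 were named here after their values were seen, and Myb was tested only through the 5-month fructose livers. Granulocyte precursor markers passed in 9 of 10 and mature neutrophil markers in 5 of 7. In these lists 5 and 1 genes passed the filter only through the 5-month fructose livers, which also enter this difference. The part of both lists in the globin values was not tested.

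Age was compared within each diet. On fructose, Hba-a1 fell by 2.35 on the log2 scale from 5 to 9 months (SE 0.41, limma adjusted p = 0.0122), as the only 1 of 6 members called, against 3.48% of all genes (0.664% higher and 2.81% lower). This call was lost without either 5-month fructose library and without the 2 libraries with Xist, while the log2 fold change of Hba-a1 stayed between -2.57 and -2.12 over 19 settings. Slc4a1 (-3.59, SE 1.03, limma adjusted p = 0.0901) and Epb42 (-2.95, SE 0.76, limma adjusted p = 0.0633) did not pass, and edgeR and DESeq2 called 2 members each. The 3 other adult globins fell too: Hba-a2 fell by 2.71, Hbb-bs fell by 2.34 and Hbb-bt fell by 2.62. In the same comparison 9 of 10 granulocyte precursor markers and 7 of 7 mature neutrophil markers fell. In these lists 5 and 1 genes passed the filter only through the 5-month fructose livers, the higher side of this comparison. The part of both lists in the result was not tested. On cornstarch limma called 0 members and 0% of all genes, higher or lower, and 2051 genes and 0 members had an unadjusted p under 0.05. On recovered reads edgeR and DESeq2 called 0 members each, and 0 and 165 of all genes. The largest change of a member there was that of Alas2 (0.88, SE 0.75, limma adjusted p = 0.584). The comparison on fructose shares its 5-month libraries with the comparison of diets.

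Between the diets in tumours at 9 months, limma called 0 of 5 tested and 0% of all 14503 genes, while 2 members and 1178 genes had an unadjusted p under 0.05, and edgeR and DESeq2 called 0 members each, and 0 and 119 of all genes. Slc4a1 differed by 2.46 on the log2 scale (SE 1.08, limma adjusted p = 0.606) and was higher in each fructose tumour than in both cornstarch tumours. Epor had -0.88 (SE 0.36, limma adjusted p = 0.593) and was lower in each. Epb42, not tested here, was also lower in each fructose tumour. Thus 1 member was higher and 2 were lower without overlap, as were 8.72% and 10.3% of the 22214 genes detected in tumours. Hba-a1 had 1.06 (SE 0.64, limma adjusted p = 0.691), with 1 library far above the rest: replicate 3 of the fructose tumours held 10664 normalised counts of the 4 adult globins, against 1136 to 2900 in the other 4 tumours.

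Between tumours and livers of the same age limma called Klf1, Alas2 and Epor, none of which it had called between the diets. Alas2 and Epor overlapped between tumours and livers on fructose, and for Epor the diets did not overlap in tumours. Klf1 fell by 1.29 on the log2 scale (SE 0.31, limma adjusted p = 0.0141) and Alas2 fell by 1.35 (SE 0.36, limma adjusted p = 0.0223), while Epor rose by 0.73 (SE 0.24, limma adjusted p = 0.0497), taken over both diets. Slc4a1 had -0.34 (SE 0.72, limma adjusted p = 0.773) and Hba-a1 -0.07 (SE 0.43, limma adjusted p = 0.923). limma thus called 1 member higher and 2 lower of 5 tested, and edgeR and DESeq2 called 3 each, where 23.8% of all genes were called, 13.4% higher and 10.5% lower. Epb42, Gata1 and Rhag did not pass the filter here. On fructose 1 member, Klf1, was lower in every tumour than in every liver and 0 were higher, where 12.5% of 22666 detected genes were lower and 12.5% higher in that sense. On cornstarch Alas2 and Klf1 were lower and Epb42 and Epor higher without overlap, where 14.6% of 21640 detected genes were lower and 17.5% higher. All 3 calls were lost without replicate 2 of the cornstarch tumours, with log2 fold changes of -1.22 for Klf1, -1.32 for Alas2 and 0.77 for Epor. Only 1 held without replicate 1 of that group, replicate 1 of the fructose livers or replicate 2 of the cornstarch livers, and the call for Epor held in 6 of 18 alternative settings. Over those 18 settings the log2 fold change was -1.56 to -1.12 for Klf1, -1.64 to -1.16 for Alas2 and 0.63 to 0.91 for Epor.

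The genes around the members in tumours were again divided. Of the 13 haem and iron loading genes 0 rose and 4 fell: Cpox, Abcb10, Tmem14c and Steap3, by log2 fold changes of -0.99, -0.90, -0.75 and -0.78 (limma adjusted p = 0.0124, 0.0106, 0.00682 and 0.0195). They were named after their values were seen. Of 3 adult globins other than Hba-a1, 0 passed. Bcl2l1 rose by 1.46 (SE 0.15, limma adjusted p = 0.000276) and Stat5b fell by 0.36 (SE 0.12, limma adjusted p = 0.0491). Hepatocyte markers moved both ways here, 1 of 8 higher and 1 lower, with sums of 1306820 to 1966340 and 1401710 to 1696700 in fructose and cornstarch livers and of 1458920 to 2597990 and 2308760 to 4167170 in fructose and cornstarch tumours. Of 9 macrophage markers 1 rose and 4 fell. Their part in the result was not tested.

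Across the 16 libraries the members did not vary as a single group. The Pearson correlation of log2(value + 1) was 0.888 between Slc4a1 and Hba-a1 and 0.845 between Slc4a1 and Gata1, and without both 5-month fructose livers, over 14 libraries, 0.735 and 0.606. With Epb42 and Rhag, Slc4a1 had 0.701 and 0.745 over the 16 libraries, but 0.260 and 0.457 over those 14. Epb42, Gata1 and Rhag rest on few reads in the 14. Over all 16 libraries Slc4a1 had 0.05 with Alas2, -0.12 with Klf1 and -0.35 with Epor. These are descriptions over libraries of unequal depth and 6 groups.

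Among 12401 other genes with a mean of at least 10 normalised counts, the 8 most like the mean of the members were sought by Pearson correlation over the 16 libraries. They were Hmgb2 (0.955), a chromatin protein of dividing cells, Slfn4 (0.951), Elane (0.948), the elastase of granulocyte precursors, Hbb-bt (0.928), F13a1 (0.924), a clotting factor subunit of platelets and monocytes, Ctsg (0.922), Mmp9 (0.922), an enzyme of neutrophil granules, and Lmnb1 (0.918), a nuclear lamin. Without the 2 libraries farthest out, both 5-month fructose livers, the correlations were 0.897 for Hbb-bt, 0.866 for Slfn4, 0.828 for Hmgb2, 0.811 for F13a1, 0.807 for Elane, 0.666 for Mmp9, 0.641 for Ctsg and 0.569 for Lmnb1. Hmgb2 stood at 530.0 to 604 in the 5-month fructose livers, at 94.5 or less in the cornstarch livers of that age and at 162 or less in the 11 other libraries.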

How the data were processed

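RNA of livers and tumours went through a TruSeq mRNA protocol, per the labels. A single table of signal values (normalised counts per gene) was deposited by the authors. FastQC, Trim Galore, STAR, RSEM, DESeq2 and GRCm38 are listed without versions in the submitters' processing notes. Within a library all values were whole multiples of a constant, from which reads were recovered (100% of values whole within 0.01). IDs were matched to GENCODE release M21, which held 46574 of 47069.

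For the main test limma 3.58.1 (R 4.3.3) took log2(value + 1) and estimated each group's mean over 11 liver libraries or 11 libraries of 9 months. Genes reaching 10 in at least 2 libraries entered, with Benjamini-Hochberg adjustment over all of them and calls at 0.05. There were 7 contrasts: diet in liver at each age and their difference, age within each diet, diet in tumours, and tumour against liver. edgeR 4.0.16 and DESeq2 1.42.0 on recovered reads, other pseudocounts (0.5 and 5), no filter, TMM scaling, 1 fit of 16 libraries, each library left out, and leaving out the libraries with Xist were alternatives. The script was tested on simulated data.

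Named genes were the 8 members, the 4 genes of each related list with the smallest p for diet in liver at 5 months, and the 8 genes most like the members' mean log2 level. Genes named outside this rule are said to be so. Some genes that the rule names are not reported here. The members and the 17 lists were chosen with earlier results of these data known, so a pattern in a list is no independent support. Symbols of the lists matched 154 genes. The median of a list includes genes that passed the filter only through the 5-month fructose livers. Floors are 3 reads over a group, and intervals and floors cover counting error only.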

Additional observations from a re-analysis of the deposited data

How the results depend on the processing

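No paired analysis was possible because the labels carry no replicate numbers. The fold changes of the members gave 381 values over 21 results: 345 kept their direction and their side of the threshold, 22 lost the call, 10 gained one and 4 changed sign. The sign changes were those of Alas2 at 5 months (-0.50 to 1.26 with single libraries left out, below 0 without replicate 1 of the cornstarch livers, and -0.51 without the libraries with Xist), Epor at 5 months (-0.33 to 0.0397, above 0 without replicate 3 of the cornstarch livers) and Hba-a1 at 9 months (-0.0504 to 0.65, below 0 without replicate 3 of the cornstarch livers). None of these was called. At 5 months Slc4a1 (4.67 to 7.05) and Hba-a1 (2.64 to 3.12) were called in 19 of 19 settings and Epb42 in 16 of 16. The 3 settings without either 5-month fructose library or without the libraries with Xist left Epb42 untested. Its 16 calls thus all include both fructose livers, through which it passed the filter, and do not compare with the 19. With no filter on low values 5 members were called there in place of 3, but the added Gata1 and Rhag stand at 0 in all 3 cornstarch livers, so these calls are against groups of 0 reads. For the difference of the diet effect between ages, DESeq2 called 2 members, and leaving out single libraries gave 0 to 1. For age on fructose the count was 3 with a pseudocount of 5, 3 with no filter, 2 with edgeR, 2 with DESeq2, 0 without the libraries with Xist, and 0 to 2 with single libraries left out. For tumour against liver the count was 0 to 3 with single libraries left out: 0 without replicate 2 of the cornstarch tumours and 1 without replicate 1 of the same group, replicate 1 of the 9-month fructose livers or replicate 2 of the 9-month cornstarch livers. The count of all genes called at 5 months was 2119, and 1054 and 459 without replicate 1 and 2 of the fructose livers. In those fits the lone fructose library is assumed to vary like the other groups. Leaving out the libraries with Xist could not be run for tumours, since none is among those 11. With 2 or 3 libraries a group, Gata1, Rhag and Epb42 rest on few reads and small changes in them were not detectable at this depth. The causes of these dependences were not tested.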

Other observations

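Replicate 3 of the fructose tumours stood above the other 15 libraries in a spectrin gene, but in none of the members. The spectrin gene Sptb stood at 424.5 normalised counts there and at 11.3 to 81.7 elsewhere. Tmod1, which caps actin in the membrane skeleton, stood at 28.7 there, and Car2, a carbonic anhydrase, at 758. The levels of these genes in the other libraries are not given here. In this library the Gata1 level of 3.48 and the Slc4a1 level of 22.6 were the highest among tumours. Both lay below the 5-month fructose livers (10.2 and 6.85 for Gata1, 283 and 88.0 for Slc4a1). Its Epb42 level of 2.61 and its Klf1 level of 19.1 lay within the range of the other tumours. The mast cell gene Cpa3 stood at 87.0 in the same library. These genes were named after their values were seen.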
